A study of Homo sapiens with 14 samples.

Results

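Naïve BRM peaks were set against primed BRG1 peaks, to ask where the ATPase that marks BAF in naïve human embryonic stem cells (hESCs) and the ATPase of primed BAF sit on the genome relative to each other. The sites were the 17413 naïve BRM peaks and the 15611 primed BRG1 peaks on chromosomes 1 to 22 and X of hg38, which together are 33024 of the 222964 peaks in the 8 distinct lists of the series. A BRM peak and a BRG1 peak were paired when the bases they share cover at least 25% of either. This gave 3 classes: 4097 BRM sites with primed BRG1 (called shared sites), 13316 BRM sites without primed BRG1 and 11507 primed BRG1 sites without BRM. Both libraries were made by chromatin immunoprecipitation and sequencing (ChIP-seq) from WIBR3, an established hESC line, with mouse feeder cells used in both states. Naïve cells were held in 5i/L/A medium and primed cells in conventional hESC medium. The comparison joins 1 BRM library from naïve cells to 1 BRG1 library from primed cells, so the change of antibody and the change of state cannot be told apart, and no value below has a replicate error. Percentages are given with exact 95% Clopper-Pearson intervals and odds ratios with 95% Woolf intervals. Both cover counting error only, and they take no account of sequencing depth, which by the study's quality table was lower for naïve BRM than for primed BRG1 and whose part in the results was not tested.

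BAF is the mammalian SWI/SNF complex, which uses ATP to slide or evict nucleosomes and so opens promoters and enhancers. Its motor is either BRG1, encoded by SMARCA4, or BRM, encoded by SMARCA2, and a single complex carries only one of them. BAF155, encoded by SMARCC1, is a scaffold subunit found in complexes of either motor. SOX2 is a pluripotency transcription factor that binds enhancers together with OCT4. RE1 is the DNA element bound by REST, a repressor that keeps neuronal genes silent outside neurons, and it consists of a left and a right block of bases a short distance apart.

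Sequences are shown first because the shared sites of highest fold carried a recognisable element. RE1-like elements were scored as the best match, on either strand, to the blocks TTCAGCACC and GGACAGCGC with 2 bases between them, and were called when at least 15 of 18 letters matched in the 200 bp around a peak's midpoint. This search was added after the gene names at the strongest shared sites had been seen. The 8 shared sites of highest BRM fold that had such an element and a protein-coding transcription start site (TSS) within 20 kb were named after their nearest gene, and capitals mark the letters that match the blocks:
DPP6, chr7:154055697-154055716, minus strand: TTCAGCACCtcaGACAGCtC
S100A7A, chr1:153422644-153422663, minus strand: TTCAGCACCacGGACAGCtC
TAFA4, chr3:68919177-68919196, minus strand: TTaAGCACCtcaGACAGCtC
ONECUT2, chr18:57447279-57447298, plus strand: TTCAGCACCacGaACAGCGC
RPS19BP1, chr22:39545959-39545978, plus strand: TTCAGCACCacGGACAGCag
RPL11, chr1:23673267-23673286, minus strand: cTCAGCACCaaGGACAGtGC
SNAP25, chr20:10219672-10219691, plus strand: TTCAGCACCggGGACAGCGg
SLC12A5, chr20:46029563-46029582, minus strand: TcCAGCACCttGGACAGCGC
Of these 8 elements 4 matched at 17 letters, 3 at 16 and 1 at 15. SNAP25, which encodes a protein of synaptic vesicle fusion, and SLC12A5, which encodes a neuronal chloride transporter, had theirs within 1 kb of a TSS. The 3 corresponding BRM sites without primed BRG1, all on chromosome 19, had 15, 16 and 15 matching letters:
LILRA5, chr19:54304671-54304690, plus strand: aTCAGCACCatGGACAGgGg
LGALS16, chr19:39646008-39646027, minus strand: cTCAGCACCacGGACAGCaC
CEACAM7, chr19:41696502-41696521, plus strand: gaCAGaACCttGGACAGCGC

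The site of highest fold away from promoters in each class, that at promoters in both classes of BRM sites, and 1 further site with primed SOX2 are shown next over 200 bp around the midpoint. Capitals mark matches, on either strand, to the motif words searched: CATTGT or CTTTGT (SOX), CCTGCTG (ZIC), ATGCAAAT (octamer), GGAATG (TEAD), TGANTCA (AP-1), GCCNNNGGC (TFAP2), GGGNGTGGC (KLF), CCGGAAG (ETS), GCGCATGC (NRF1) and CCANNAGGG (CTCF). No word contains another, except that CCAGCAGGG, a form of the CTCF word, contains the ZIC word on the opposite strand. The promoter window of BRM without primed BRG1 holds this form, so its CTCF match is also a ZIC match. Both blocks of an RE1-like element are also in capitals, mismatches included:
Shared, away from promoters, chr9:132114227-132114426, plus strand: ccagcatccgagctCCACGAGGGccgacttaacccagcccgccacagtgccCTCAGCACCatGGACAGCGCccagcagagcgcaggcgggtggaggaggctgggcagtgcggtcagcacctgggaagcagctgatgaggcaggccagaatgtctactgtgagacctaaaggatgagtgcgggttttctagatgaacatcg
Shared, promoter, chr17:16812237-16812436, plus strand: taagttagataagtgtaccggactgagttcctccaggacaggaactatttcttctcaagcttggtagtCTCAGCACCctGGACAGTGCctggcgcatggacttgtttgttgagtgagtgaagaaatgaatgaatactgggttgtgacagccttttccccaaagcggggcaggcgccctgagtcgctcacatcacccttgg
BRM without primed BRG1, away from promoters, chr3:127233477-127233676, plus strand: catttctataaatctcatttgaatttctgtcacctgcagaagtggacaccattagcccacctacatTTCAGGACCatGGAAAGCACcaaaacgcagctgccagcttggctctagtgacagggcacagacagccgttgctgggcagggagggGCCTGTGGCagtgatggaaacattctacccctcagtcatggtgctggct
BRM without primed BRG1, promoter, chr7:76424087-76424286, plus strand: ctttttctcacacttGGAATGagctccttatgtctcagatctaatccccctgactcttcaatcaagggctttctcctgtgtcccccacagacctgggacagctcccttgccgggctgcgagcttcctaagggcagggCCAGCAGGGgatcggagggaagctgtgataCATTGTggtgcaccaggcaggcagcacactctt
Primed BRG1 without BRM, away from promoters, chr9:126558139-126558338, plus strand: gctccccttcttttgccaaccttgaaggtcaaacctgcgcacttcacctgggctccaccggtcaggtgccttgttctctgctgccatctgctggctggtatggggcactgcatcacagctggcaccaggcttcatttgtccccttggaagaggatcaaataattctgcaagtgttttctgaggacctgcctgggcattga
Primed BRG1 without BRM, UBP1 intron, chr3:33426160-33426359, plus strand: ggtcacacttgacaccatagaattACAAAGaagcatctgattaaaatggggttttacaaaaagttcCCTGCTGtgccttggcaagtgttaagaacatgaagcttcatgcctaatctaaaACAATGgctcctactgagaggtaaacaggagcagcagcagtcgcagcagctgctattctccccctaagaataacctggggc
The 2 shared windows and the BRM window away from promoters each held an RE1-like element. The window of the strongest primed BRG1 site without BRM away from promoters, 55.7 kb from the nearest protein-coding TSS, of LMX1B, held none of the words. The window in UBP1, chosen for its primed SOX2 peak after its values were seen, held 2 SOX words and 1 ZIC word.

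A minority of either list was shared with the other. Of 17413 naïve BRM peaks 4097 held a primed BRG1 peak (23.5%, 22.9 to 24.2%), and of 15611 primed BRG1 peaks 4104 held a naïve BRM peak (26.3%, 25.6 to 27%). Paired midpoints lay a median of 92 bp apart. Few pairs were near the threshold: 58 pairs covered from 20 to 25% of either peak, 51 covered from 25 to 30%, and in 2083 pairs one peak lay wholly within the other. The sites without a partner were mostly far from one. The nearest primed BRG1 peak was a median of 31.1 kb from a BRM site without primed BRG1, and the nearest BRM peak was 45.3 kb from a primed BRG1 site without BRM. Within 1 kb lay a peak of the other list for 6.30% of the former (5.89 to 6.73%) and 7.58% of the latter (7.10 to 8.08%). Requiring 50% of both peaks to be covered lowered the shared percentages to 12.7% and 14.2%.

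Promoters made the first difference between the classes. A promoter site had its midpoint within 1 kb of any annotated TSS. That was true of 52.1% of shared sites (50.6 to 53.7%), 25.6% of BRM sites without primed BRG1 (24.8 to 26.3%) and 48.8% of primed BRG1 sites without BRM (47.9 to 49.7%). The odds of a promoter were 3.17 times higher at BRM sites with than without primed BRG1 (2.95 to 3.41), and 2.78 times higher at primed BRG1 sites without BRM than at BRM sites without primed BRG1 (2.63 to 2.93). Shared sites and primed BRG1 sites without BRM were closer to each other, with an odds ratio of 1.14 (1.06 to 1.23). BRM sites without primed BRG1 lay instead in introns (40.1%) and between genes (30.4%), against 25.5% and 19.7% of shared sites. Their windows had a median GC content of 52.0%, against 61.5% at shared sites and 58.5% at primed BRG1 sites without BRM. The promoter excess was much smaller among strong peaks. With only peaks of −log10 q of at least 3, the log2 odds ratio fell from 1.66 to 0.45 for BRM sites with against without primed BRG1, and from 1.47 to 0.37 for primed BRG1 against BRM sites without a partner. In both lists the promoter percentage was lower in the groups of highest fold than in those of lowest fold, as given with the fold values.

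The other subunits separated the classes by state. Shared sites held BAF in both states nearly throughout: 98.0% had a naïve BRG1 peak, 98.5% a naïve BAF155 peak and 99.6% a primed BAF155 peak. BRM sites without primed BRG1 mostly held naïve BRG1 (84.5%, 83.9 to 85.1%) and naïve BAF155 (88.4%, 87.8 to 88.9%), and 35.4% of them (34.6 to 36.2%) still held primed BAF155. A site without a primed BRG1 peak could thus hold a peak of another primed BAF subunit. Of primed BRG1 sites without BRM 98.4% held primed BAF155, and 62.6% (61.8 to 63.5%) held naïve BRG1 or BAF155. The primed BRM list, of 167 peaks, met 1 shared site, 18 BRM sites without primed BRG1 and 3 primed BRG1 sites without BRM. These percentages depended on the overlap rule, and with 50% of both peaks covered primed BAF155 was found at 15.8% of BRM sites without primed BRG1, and naïve BRG1 or BAF155 at 31.8% of primed BRG1 sites without BRM.

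**Figure D1:**
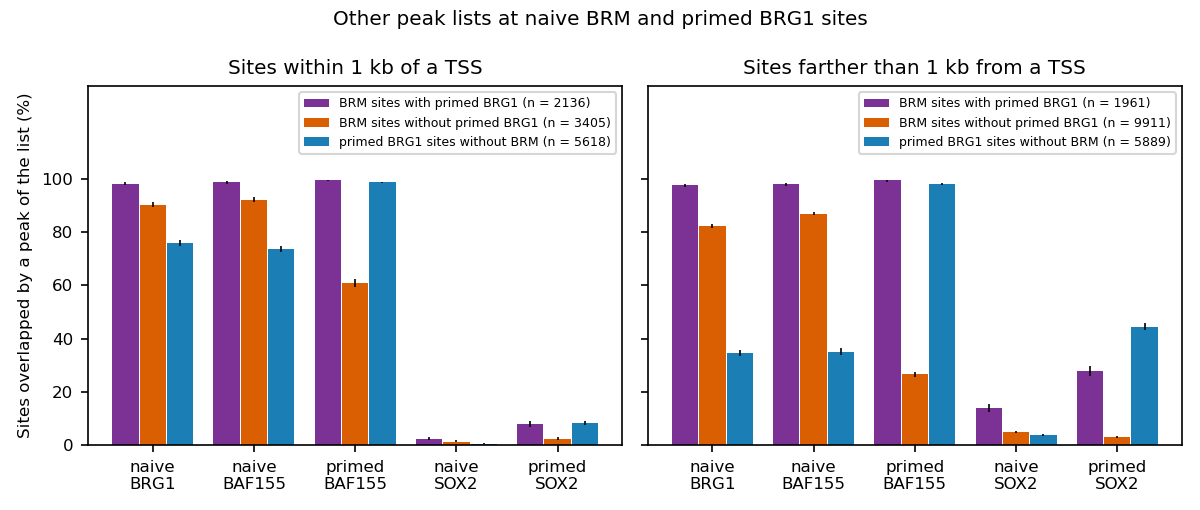
Percentage of sites (y axis) that overlapped a peak of each of 5 other lists (x axis), for promoter sites (left) and sites farther than 1 kb from a TSS (right), with 1 bar per class and exact 95% intervals. Away from promoters naïve BRG1 was found at 34.5% of primed BRG1 sites without BRM, and primed BAF155 at 26.6% of BRM sites without primed BRG1.

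Position changed these values most for the sites without a partner. At promoters 76.1% of primed BRG1 sites without BRM held naïve BRG1 (75.0 to 77.2%), against 34.5% away from promoters (33.3 to 35.8%). Primed BAF155 was found at 61.0% of promoter BRM sites without primed BRG1 (59.3 to 62.6%) and at 26.6% of the others (25.7 to 27.5%). Away from promoters, 3394 of 5889 primed BRG1 sites without BRM had neither naïve BRG1 nor naïve BAF155, and 7278 of 9911 BRM sites without primed BRG1 had no primed BAF155.

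Primed SOX2 separated the classes, most of all away from promoters, while naïve SOX2 was most frequent at shared sites. Primed SOX2 was found at 26.8% of primed BRG1 sites without BRM (26 to 27.6%), at 17.4% of shared sites (16.2 to 18.5%) and at 2.91% of BRM sites without primed BRG1 (2.63 to 3.21%). Away from promoters the values were 44.5%, 27.8% and 3.13%, with an odds ratio of 24.8 (21.9 to 28.1) for primed BRG1 against BRM sites without a partner. At promoters they were 8.33%, 7.77% and 2.29%, and the odds ratio was 3.88 (3.04 to 4.95). Naïve SOX2, whose list held 1940 peaks against 9290 in the primed state, was found at 7.84% of shared sites (7.03 to 8.70%), 3.90% of BRM sites without primed BRG1 (3.58 to 4.24%) and 2.16% of primed BRG1 sites without BRM (1.90 to 2.44%). The difference between the last 2 classes depended on the peaks taken. Its log2 odds ratio was −0.88 (−1.10 to −0.66) over all peaks, −0.36 away from promoters, and 0.45 (0.14 to 0.77), the other direction, when only peaks of −log10 q of at least 3 were kept.

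Sites with SOX2 in both states were most frequent in the shared class. SOX2 of both states was found at 12.6% of shared sites away from promoters (247 of 1961, 11.2 to 14.2%), at 3.62% of primed BRG1 sites without BRM (213 of 5889, 3.15 to 4.13%) and at 1.30% of BRM sites without primed BRG1 (129 of 9911, 1.09 to 1.54%). Of the 222 primed BRG1 sites without BRM away from promoters that held naïve SOX2, 213 also held primed SOX2. Of the 474 such BRM sites without primed BRG1, 129 did. Among the latter, those with primed BAF155 had primed SOX2 at 10.8% (285 of 2633) and naïve SOX2 at 9.04% (238 of 2633), and those without primed BAF155 had 0.34% (25 of 7278) and 3.24% (236 of 7278). Primed BRG1 sites without BRM away from promoters held primed SOX2 at 41.3% where naïve BRG1 or BAF155 was present (39.4 to 43.3%) and at 46.8% where it was not (45.1 to 48.5%). Naïve SOX2 was found at 8.30% and 0.44% of them.

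The strongest peaks of both lists were shared. Peaks of each list were split into 10 groups of equal size by the authors' fold enrichment over input. From the lowest to the eighth group between 18.8 and 23% of BRM peaks held primed BRG1, and in the highest group 46.2% did (43.8 to 48.5%). Of primed BRG1 peaks between 19.2 and 24.7% held BRM in the lowest 8 groups, and 60.1% did in the highest (57.6 to 62.5%). Of the 100 BRM peaks of highest fold 93 were shared, and of the 100 primed BRG1 peaks of highest fold 99 were. Promoters went the other way: their percentage was 36.6% in the lowest and 23% in the highest group of BRM peaks, and 62.5% and 26.3% in those of primed BRG1 peaks. Across the 4097 shared sites BRM fold and primed BRG1 fold had a Spearman correlation of 0.47 and a Pearson correlation of 0.62, given as a description, since all sites come from the same pair of libraries.

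**Figure D2:**
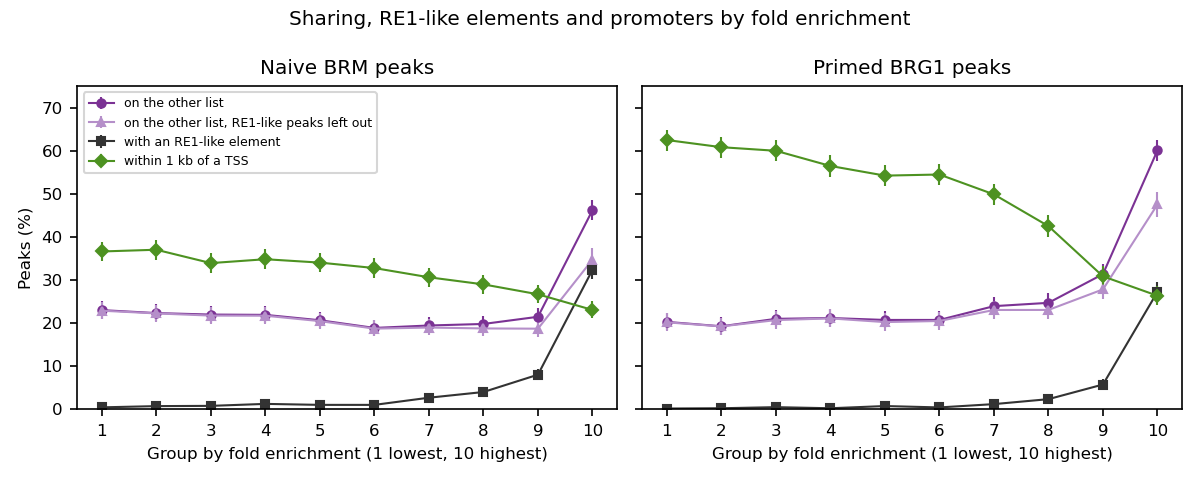
Percentage of naïve BRM peaks (left) and primed BRG1 peaks (right) in 10 groups by fold enrichment (x axis, 1 lowest) that were on the other list, that had an RE1-like element, and that lay at promoters, with exact 95% intervals. Paler triangles leave out peaks with an RE1-like element, which lowers the shared percentage in the highest group to 34.7% for BRM and 47.5% for primed BRG1.

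RE1-like elements went with strong, shared peaks. They were found at 13.5% of shared sites (553 of 4097, 12.47 to 14.6%), at 2.64% of BRM sites without primed BRG1 (351 of 13316, 2.37 to 2.92%) and at 0.38% of primed BRG1 sites without BRM (44 of 11507, 0.28 to 0.51%). Away from promoters 409 of 1961 shared sites had one (20.9%, 19.1 to 22.7%), and of the windows placed 2 kb to either side of all shared sites 1 did (0.012%). Over the promoters of all 19626 protein-coding genes, 22 windows of 200 bp around a TSS had one (0.11%). By list, 92.7% of primed BRG1 peaks with an element were shared (556 of 600, 90.3 to 94.6%), as were 61.2% of BRM peaks with an element (553 of 904, 57.9 to 64.4%). In the highest of the 10 fold groups 32.3% of BRM peaks and 27.2% of primed BRG1 peaks had an element, against 0.40% and 0.13% in the lowest. Among the 100 peaks of highest fold it was 57 of BRM and 62 of primed BRG1. The median BRM fold was 4.79 at shared sites with an element and 3.23 at those without, and the same medians for primed BRG1 were 5.27 and 3.61.

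SOX2 peaks were rare at shared sites with RE1-like elements. Of 553 shared sites with an element 1 held naïve SOX2 and 6 held primed SOX2. Shared sites thus fell into 553 with an element, 732 with SOX2 of either state and no element, and 2812 with neither. Leaving the elements out raised primed SOX2 at shared sites away from promoters from 27.8% to 34.8% (32.4 to 37.2%) and naïve SOX2 from 13.9% to 17.5% (15.6 to 19.4%). It raised the promoter percentage of shared sites from 52.1% to 56.2%. REST itself was not profiled in these samples, and an element is a match of letters, not a bound site.

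**Figure D3:**
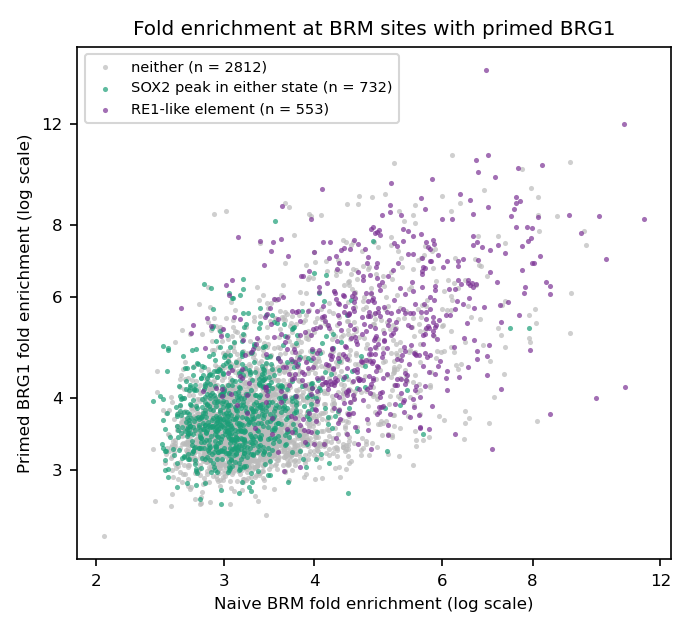
Naïve BRM fold enrichment (x axis) against primed BRG1 fold enrichment (y axis), both on log scales, at each of the 4097 shared sites, coloured by RE1-like element (553), SOX2 peak without an element (732) or neither (2812). Sites with an element reach higher fold in both libraries, with medians of 4.79 for BRM and 5.27 for primed BRG1, against 3.23 and 3.61 at shared sites without one.

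The strongest shared sites near a protein-coding gene were on all 5 BAF lists. At DPP6, which encodes a subunit of neuronal potassium channels, an exonic site at chr7:154055578-154055824 had folds of 10.7 for BRM, 4.18 for primed BRG1, 7.14 for naïve BRG1, 8.27 for naïve BAF155 and 6.09 for primed BAF155. At S100A7A, which encodes a calcium-binding protein of skin, a site 4.66 kb from the TSS had 10.7 for BRM and 12 for primed BRG1. An intron of TAFA4, which encodes a secreted protein of sensory neurons, had 9.88 and 8.31, and an intron of POU2F2, which encodes the octamer-binding factor OCT2, had 9.48 and 7.40 with no RE1-like element. Among shared sites within 1 kb of a protein-coding TSS, those of highest BRM fold lay at the unnamed gene ENSG00000270299 (9.41 for BRM and 7.82 for primed BRG1), SNAP25 (8.13 and 8.25), SLC12A5 (7.98 and 7.90), CHGA (7.80 and 6.24) and CELF3 (7.45 and 5.30). CHGA encodes the granule protein chromogranin A, and its element matched at all 18 letters. CELF3 encodes an RNA-binding protein of the brain, and its site alone among these 5 had a SOX2 peak, in primed cells, with a SOX2 fold of 8.59.

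BRM sites without primed BRG1 reached lower folds. The highest near a protein-coding gene lay at ZP3, which encodes an egg coat glycoprotein, 0.763 kb from the TSS at chr7:76424040-76424334. Its folds were 7.87 for BRM, 5.51 for naïve BRG1, 6.04 for naïve BAF155 and 3.04 for primed BAF155. The next were at NIM1K, a kinase gene (7.81 for BRM), NMRAL1, which encodes a redox sensor (6.86), LILRA5, a leukocyte receptor gene (6.71), and MARCHF9, a ubiquitin ligase gene (6.66). All 5 of these held naïve BRG1, naïve BAF155 and primed BAF155. Within 1 kb of a protein-coding TSS, ZP3 was followed by GBF1, ADAP1, ARVCF and TBC1D14, with BRM folds from 5.71 to 6.18. ADAP1 and TBC1D14 had no primed BAF155 peak there.

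Near protein-coding genes, primed BRG1 sites without BRM were led by an exonic site of MYDGF, which encodes a secreted growth factor, with a BRG1 fold of 6.65. At EOMES, a regulator of mesoderm and endoderm, an intergenic site 5.95 kb from the TSS at chr3:27728466-27728862 had folds of 6.45 for primed BRG1 and 4.85 for primed BAF155, and SOX2 peaks in both states with folds of 7.03 in naïve and 10.0 in primed cells. Its window held none of the motif words. The intronic site of UBP1, which encodes a factor related to TFCP2L1, had 6.22 for primed BRG1 and 11.3 for primed SOX2, with no naïve BRG1, BAF155 or SOX2 peak. CCDC63, a cilia gene, had its site at the promoter (6.38), and CDH22, a cadherin gene, in an intron (6.12). Unlike the UBP1 site, those of MYDGF, EOMES, CCDC63 and CDH22 held both naïve BRG1 and naïve BAF155 peaks. Their naïve folds ran from 2.71 for BRG1 at EOMES to 4.26 for BRG1 at CDH22. The promoters of IL1RAPL2, CD58, CREG2 and TRPC7 followed CCDC63, among sites within 1 kb of a protein-coding TSS, with folds from 5.70 to 6.11. TRPC7, which encodes a calcium channel, had an RE1-like element of 16 letters.

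Motif words away from promoters separated the classes along the same lines. SOX words were found in 39.8% of windows at primed BRG1 sites without BRM (38.5 to 41.0%), 25.1% at shared sites and 23.3% at BRM sites without primed BRG1, against 24.8, 21.0 and 21.5% in windows 2 kb to either side. ZIC factors are neural and primed-state regulators, and their word was found in 16.7%, 10.4% and 7.68%, against 4.70, 5.97 and 4.58% to either side. The octamer of OCT4 was found in 5.33%, 3.93% and 2.75%, against 1.59, 1.53 and 1.34%. AP-1 words were found in 14.6%, 9.48% and 8.38%, against 6.44, 6.35 and 5.69%. TEAD words were found in 20.9%, 16.2% and 16.7%, against 11.2, 11.7 and 10.4%, so shared sites and BRM sites without primed BRG1 were alike. CTCF words were found in 6.78%, 6.32% and 4.72%, against 2.86, 3.70 and 3.36%. TFAP2 words leaned the other way, with 9.0% at primed BRG1 sites without BRM, 13.2% at shared sites and 12.3% at BRM sites without primed BRG1, against 4.41, 5.58 and 5.13% to either side. KLF words were found in 3.62% of BRM sites without primed BRG1 (3.26 to 4.01%), 1.78% of shared sites and 1.19% of primed BRG1 sites without BRM (0.93 to 1.50%), against 0.98, 1.25 and 0.93%. KLF and TFAP2 factors include regulators of the naïve state. The lean of TFAP2 words did not hold at promoters. There they were found in 29.8% of primed BRG1 sites without BRM, 31.5% of shared sites and 23.3% of BRM sites without primed BRG1. Over windows of the same length at all protein-coding TSSs, the SOX word was found in 14.9%, ZIC in 8.68%, the octamer in 0.81%, AP-1 in 3.90%, TFAP2 in 19.1% and KLF in 3.34%. Where primed BRG1 sites without BRM had no naïve BRG1 or BAF155, the SOX word rose to 44.4% and ZIC to 19.7%. Where BRM sites without primed BRG1 had no primed BAF155, the KLF word was found in 3.90%.

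**Figure D4:**
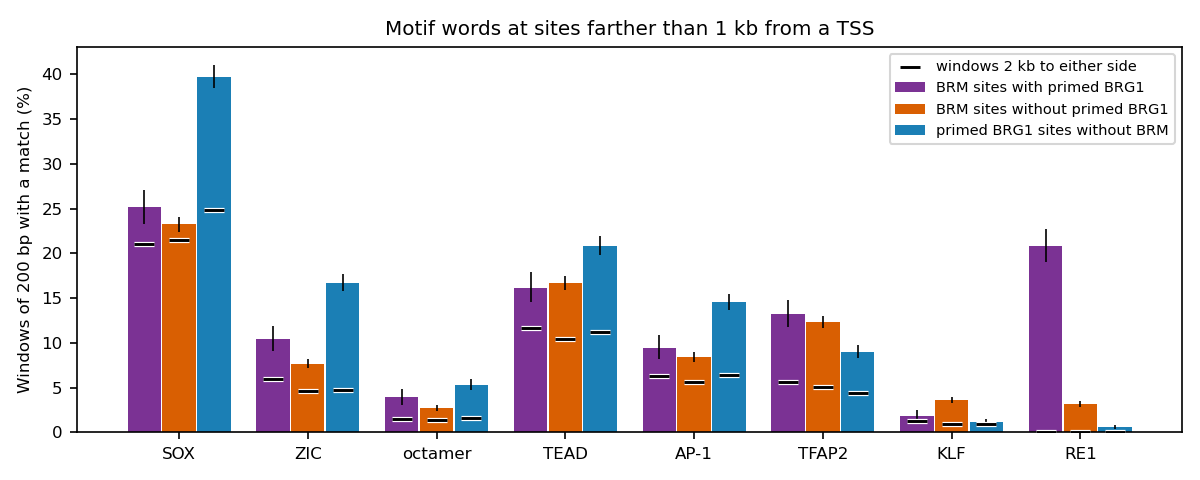
Percentage of 200 bp windows with a match to each motif word (y axis) at sites farther than 1 kb from a TSS, 1 bar per class with exact 95% intervals. Black dashes give windows 2 kb to either side. SOX and ZIC words stand highest at primed BRG1 sites without BRM (39.8% and 16.7%), KLF words at BRM sites without primed BRG1 (3.62%) and RE1-like elements at shared sites (20.9%).

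Genes were assigned to a site by the nearest protein-coding TSS within 20 kb. Of 19626 protein-coding genes 12.6% had a shared site, 26.7% a BRM site without primed BRG1 and 28.7% a primed BRG1 site without BRM. With the site at the gene's promoter these were 8.64%, 10.5% and 22.6%. The latter 2 classes met at a minority of their genes. Of the 5247 genes with a BRM site without primed BRG1, 1880 also had a primed BRG1 site without BRM (35.8%, against 28.7% over all genes). Of genes with a primed BRG1 site without BRM, those 1880 were 33.4%, against 26.7% of all genes with a BRM site without primed BRG1. Of the 1880, 1476 had no shared site. Gene lists are read against the percentages over all genes. Expression was not used, and longer or more isolated genes gather more sites.

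**Figure D5:**
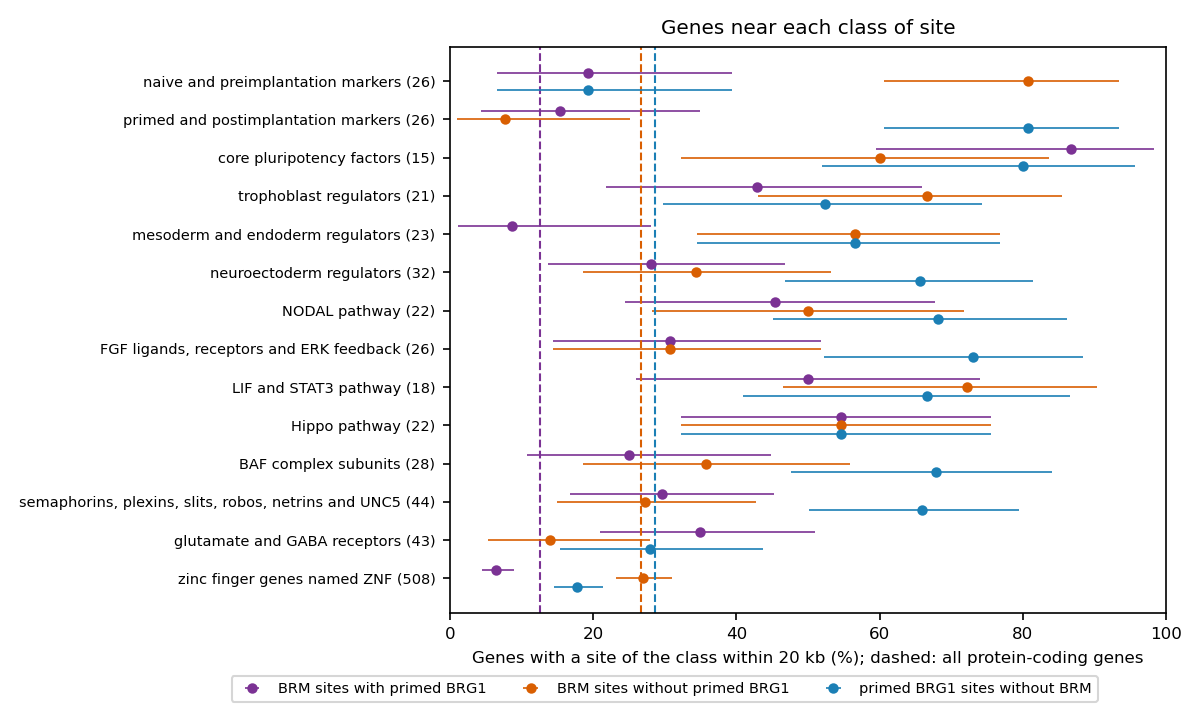
Percentage of the genes of 14 lists (number of genes in parentheses) with a site of each class within 20 kb (x axis), with exact 95% intervals. Dashed lines give all protein-coding genes (12.6, 26.7 and 28.7%). Of naïve markers 21 of 26 lay near BRM sites without primed BRG1, and of primed markers 21 of 26 lay near primed BRG1 sites without BRM.

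Markers of the 2 states fell on opposite sides. Of 26 naïve and preimplantation markers 21 had a BRM site without primed BRG1 (80.8%), 5 a primed BRG1 site without BRM and 5 a shared site. Of 26 primed and postimplantation markers 2 had a BRM site without primed BRG1, 21 a primed BRG1 site without BRM (80.8%) and 4 a shared site. TFAP2C, NLRP7, SALL1 and PTPRZ1 are among examples that the study took from these samples, so the lists are not independent of them. DNMT3L, a cofactor of DNA methylation in germ cells and the naïve state, had 4 BRM sites without primed BRG1. The one at its promoter had a BRM fold of 3.55 and a naïve BRG1 fold of 3.56, with no primed BAF155. KLF17, a naïve factor, had 1 such site in an exon, with folds of 3.75 for BRM and 11.6 for naïve SOX2. KLF5 had 4 of them and 3 primed BRG1 sites without BRM, and its promoter BRM site had folds of 3.67 for BRM, 2.78 for primed BAF155 and 10.5 for naïve SOX2. TFAP2C had 4 BRM sites without primed BRG1 and 2 shared sites. KLF4 went against the list, with 1 primed BRG1 site without BRM and no BRM site.

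At the primed markers 17 of 26 genes held a primed BRG1 site without BRM at a promoter, against the 22.6% over all genes. OTX2, a regulator of the primed state and forebrain, had 4 such sites and 1 BRM site. Its promoter site at chr14:56805744-56806822 had folds of 5.03 for primed BRG1 and 4.11 for primed BAF155, and SOX2 folds of 8.20 in naïve and 24.2 in primed cells. SOX11 had 4, with 4.23 at the promoter, SALL3 and SALL1 had 4 each, and ZIC2 had 3. DUSP6, which switches off ERK signalling, had 2 at its promoters, both with primed SOX2. DNMT3B and FZD7 had shared sites alone, DNMT3B at its promoter with folds of 3.01 for BRM and 3.82 for primed BRG1.

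Core pluripotency factors lay near all 3 classes. Of 15 genes 13 had a shared site, against 12.6% over all genes, 9 a BRM site without primed BRG1 and 12 a primed BRG1 site without BRM. At SOX2 a shared site 4.32 kb from the TSS at chr3:181716104-181716376 had folds of 3.4 for BRM and 4.30 for primed BRG1, and SOX2 folds of 15.9 in naïve and 24.2 in primed cells. At POU5F1, which encodes OCT4, an intronic shared site had 3.27 and 3.68, and SOX2 folds of 10.4 and 19.2. NANOG had no shared site: a BRM site 2.95 kb from its TSS had naïve SOX2 (SOX2 fold 5.66) and a primed BRG1 site 0.033 kb from its TSS had primed SOX2 (5.48). ZFP42, which encodes the naïve-state protein REX1, had 2 BRM sites without primed BRG1 and no other.

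Genes of FGF signalling and of neural lineages lay near primed BRG1 sites without BRM in the larger number. Over all genes 28.7% had such a site (22.6% at a promoter), 26.7% a BRM site without primed BRG1 and 12.6% a shared site. Of 26 genes of FGF ligands, receptors and ERK feedback 19 had one (17 at a promoter), against 8 with a BRM site without primed BRG1. SPRY2, FGF13, ETV1 and ETV5 had between 3 and 5 each and no BRM site, while FGF4, the FGF ligand of the early embryo, had 3 BRM sites without primed BRG1 and no primed BRG1 site. Of 22 NODAL pathway genes 15 had a primed BRG1 site without BRM and 11 a BRM site without primed BRG1. Of 32 neuroectoderm regulators it was 21 and 11, and of 44 semaphorin, plexin, slit, robo, netrin and UNC5 genes, which guide axons, 29 and 12. For BRM sites without primed BRG1, the FGF, neuroectoderm and axon guidance lists stood at 30.8, 34.4 and 27.3%. Their intervals all include the 26.7% over all genes. Mesoderm and endoderm regulators had 13 of 23 in each, and 2 with a shared site. Of 21 trophoblast regulators 14 had a BRM site without primed BRG1 and 11 a primed BRG1 site without BRM, with GATA2 on the first side (3 sites, plus 1 shared) and GATA3 on the second (5 sites). LIF and STAT3 pathway genes had 13 and 12 of 18, and Hippo pathway genes 12 of 22 in each of the 3 classes.

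The genes of BAF itself were covered too. Of 28 subunit genes 19 had a primed BRG1 site without BRM (67.9%, 47.6 to 84.1%), against 28.7% over all genes. At a promoter 16 did (57.1%, against 22.6%). A BRM site without primed BRG1 was found at 10 (35.7%, 18.6 to 55.9%) and a shared site at 7 (25%, 10.7 to 44.9%). These last 2 intervals include the values over all genes, 26.7% and 12.6%. SMARCA2, which encodes BRM, had a shared promoter site with folds of 3.2 for BRM and 3.29 for primed BRG1, SOX2 in both states, 1 further BRM site and 2 primed BRG1 sites. SMARCA4, which encodes BRG1, had a primed BRG1 site 0.001 kb from a TSS (3.22) and an intronic BRM site (3.44). SMARCC1, which encodes BAF155, had 3 BRM sites without primed BRG1 and no primed BRG1 site.

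Receptor genes of the synapse had more genes with a shared site than with a site of either other class. Of 43 glutamate and GABA receptor genes 15 had a shared site (34.9%, 21.0 to 50.9%), against 12.6% over all genes, while 6 had a BRM site without primed BRG1 and 12 a primed BRG1 site without BRM. Among the 43 genes 9 had a shared site with an RE1-like element, against 286 of all 19626 protein-coding genes (1.46%). The 9 included the glutamate receptor genes GRIA2, GRIK2, GRIK3, GRIN2C, GRM4 and GRM8. Their BRM folds at the strongest shared site ran from 3.43 for GRIN2C to 6.54 for GRIK3. Of 97 potassium channel and voltage-gated calcium channel genes 22 had a shared site (22.7%), fewer than had a site of either other class. Those were 28 with a BRM site without primed BRG1 (28.9%, against 26.7% over all genes) and 31 with a primed BRG1 site without BRM (32%, against 28.7%). A shared site with an element was found at 7 channel genes, among them KCNH7 and KCNJ6 with BRM folds of 7.40 and 7.34.

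Developmental families mostly lay above the values over all genes. Those values were 12.6% for shared sites, 26.7% for BRM sites without primed BRG1 and 28.7% for primed BRG1 sites without BRM. Below them were SOX genes with a shared site (10.5%) and cadherins with a BRM site without primed BRG1 (21.7%). Forkhead genes with a shared site were close to the value over all genes, at 15.6% (6.49 to 29.5%). Of 85 homeobox genes outside HOX, which pattern the embryo, 29 had a shared site (7 with an RE1-like element), 29 a BRM site without primed BRG1 and 43 a primed BRG1 site without BRM. In the same order the counts were 2, 8 and 13 of 19 SOX genes, 7, 21 and 24 of 45 forkhead genes, 8, 13 and 14 of 29 WNT and frizzled genes, and 6, 11 and 15 of 22 Eph receptor and ephrin genes. Adhesion and matrix genes had 5, 5 and 13 of 23 cadherins and 15, 27 and 33 of 82 laminins, integrins and collagens. Actin regulators had 9, 20 and 17 of 33, and enzymes of DNA methylation 4, 9 and 8 of 17.

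Housekeeping and clustered families lay below the values over all genes for shared sites (12.6%) and for primed BRG1 sites without BRM (28.7%). For BRM sites without primed BRG1 (26.7% over all genes) this did not hold throughout. ZNF genes and mitochondrial ribosomal protein genes (26.9%) were level with all genes, ribosomal protein genes were near (23.5%, 14.8 to 34.2%), and NLRP genes were higher (35.7%, 12.8 to 64.9%). Of 508 ZNF genes 33 had a shared site (6.50%), 137 a BRM site without primed BRG1 (27%) and 90 a primed BRG1 site without BRM (17.7%). In the same order the counts were 6, 19 and 19 of 81 ribosomal protein genes, 2, 21 and 12 of 78 mitochondrial ribosomal protein genes, 4, 6 and 11 of 48 proteasome genes, 1, 6 and 8 of 37 NADH dehydrogenase genes, and 1, 7 and 5 of 39 HOX genes. NLRP genes, some of which act in the oocyte and early embryo, had 0, 5 and 1 of 14. Clustered protocadherins had 0, 5 and 4 of 53, and replication-dependent histones 0, 6 and 8 of 69. The counts of 0 allow up to 23.2, 6.72 and 5.21% of these genes. Of 381 olfactory receptor genes 0, 17 and 3 had a site (up to 0.96% for the first), and 361 had none.

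Some genes had many sites of a class. Among shared sites CXXC5, which encodes a zinc finger regulator of WNT signalling, CELF4, which encodes a neuronal RNA-binding protein, and SOCS3, which inhibits STAT3 signalling, had 5 each. ERCC1, NR4A1, TEAD1, TYRO3 and ELF2 had 4 each. CELF4 was the one of these 8 with RE1-like elements, at 2 sites. BRM sites without primed BRG1 were most numerous at DENND2A (11), GAS7 (9), ARHGEF18, KIFC3, ABR and DPRX (8 each), HDAC5 and SLC2A14 (7 each). DPRX is a homeobox gene of the early embryo. GAS7, ARHGEF18 and HDAC5 had no primed BRG1 site. Primed BRG1 sites without BRM were most numerous at BCOR (13, 6 of them with primed SOX2), which encodes a Polycomb-linked corepressor, FOXP1 and BCL11A (9 each), TCF4 and AUTS2 (8 each), ADGRL2, SKIDA1 and ZNF608 (7 each). FOXP1, BCL11A, TCF4 and AUTS2 are known for roles in the brain. All 8 of these genes had primed SOX2 at 1 or more sites, TCF4 at 1 of its 8. Over all primed BRG1 sites without BRM the share with primed SOX2 was 26.8%, so at least 1 such site is likely at any gene with this many. At the 8 genes with most BRM sites without primed BRG1, 1 site in all had naïve SOX2 and 1 had primed SOX2, both counts at SLC2A14. Over all BRM sites without primed BRG1 naïve SOX2 was found at 3.90% and primed SOX2 at 2.91%.

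Chromosome 19, which is dense in genes, stood apart in the BRM list. It held 1474 BRM peaks, 25.1 per Mb and 8.46% of the list, against 484 primed BRG1 peaks, 8.26 per Mb and 3.10% of the list. Of its BRM peaks 15.4% were shared (13.6 to 17.3%), and of its primed BRG1 peaks 47.3% were (42.8 to 51.9%). On chromosome X the order was reversed, with 327 BRM and 564 primed BRG1 peaks, of which 27.5% (22.8 to 32.7%) and 15.8% (12.9 to 19.1%) were shared. Primed BRG1 peaks also outnumbered BRM peaks on several other chromosomes, such as chromosome 5. It held 669 BRM and 901 primed BRG1 peaks, of which 29.3% and 21.6% were shared. Over the other chromosomes the shared percentages ranged from 14.8 to 29.3% of BRM peaks and from 17.0 to 38.9% of primed BRG1 peaks.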

How the data were processed

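ChIP-seq peak lists of 10 samples were used, which hold 8 distinct lists: in each state the second SOX2 list repeated the first peak for peak (1940 of 1940 naïve, 9290 of 9290 primed), and the pair counted as 1 sample. The labels describe 14 samples, and 4 input libraries were not analysed here. The submitters' processing notes name FastQC 0.10.1, Bowtie2 2.3.4, SAMtools 0.1.19 and hg38. Peaks were called by the authors with MACS2 against input, as broad peaks for BAF subunits and narrow peaks for SOX2, which bears on peak width. The deposited lists hold positions and, for all but primed BRM and the second SOX2 lists, the peak caller's fold enrichment, a ratio to input, with each peak's p-value and q-value given by the authors as −log10. The lists carry no read counts. The study's quality table gives fewer reads for naïve BRM than for primed BRG1, and the lists were not adjusted for this. BAF libraries were single-end and SOX2 libraries paired-end.

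Peaks on chromosomes 1 to 22 and X were paired with bedtools 2.31.1 where at least 25% of either was covered, a rule also used for all other lists. Chromosome Y was left out. Sites were annotated by midpoint with GENCODE 44, with promoters within 1 kb of any TSS and genes by the nearest protein-coding TSS within 20 kb. Windows of 200 bp of hg38 were searched for 10 motifs and for RE1-like elements. Percentages have exact Clopper-Pearson intervals and odds ratios Woolf intervals, computed in Python 3.11.15 with scipy 1.17.1, and the overlap, annotation, motif and interval functions were tested on simulated data. No test between conditions was possible with 1 library a group. Genes named are the 5 sites of highest fold per class near a protein-coding gene, the 5 promoters of highest fold, the 8 genes with most sites, and members of 33 gene lists, chromosome 8 left out. Members, lists and motifs were chosen with earlier results of these data known, and the RE1-like search, its alternatives and the EOMES and UBP1 windows after values had been seen. Other overlap rules, peak thresholds, list lengths, peak widths, promoter definitions and SOX2 lists were tried. A few list members and 1 promoter window are not reported here.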

Additional observations from a re-analysis of the deposited data

How the results depend on the processing

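Each of the 8 main values was recomputed under the alternatives, and 24 recomputed values stayed within the 95% interval of the value reported. The rest are given in this order: BRM peaks with primed BRG1, primed BRG1 peaks with BRM (percent); log2 odds ratios for promoters of BRM sites with against without primed BRG1, then, for primed BRG1 against BRM sites without a partner, of promoters, primed SOX2 and naïve SOX2; and the percent of BRM sites without primed BRG1 with primed BAF155 and of primed BRG1 sites without BRM with naïve BRG1 or BAF155. With 25% of both peaks covered they were 20.0, 22.3, 1.36, 1.39, not moved, −0.62, 25.6 and 51.0. With 50% of both they were 12.7, 14.2, 0.81, 1.26, 3.35, −0.26, 15.8 and 31.8. With any shared base the first 3 were 24.6, 27.5 and 1.78. With −log10 q of at least 3, which left 3862 BRM and 4482 primed BRG1 peaks, they were 28.2, 24.3, 0.45, 0.37, 4.30, 0.45 (reversed), 49.0 and 65.2. With lists of equal length the first 2 were 24.4 and 24.5. With peaks of 500 bp the first 3 were 21.8, 24.3 and 1.45, and the last 2 were 36.6 and 64.0. The 2 promoter ratios were 1.78 and 1.69 with a window of 500 bp, 1.34 and 1.12 with 2500 bp, and 1.94 and 1.83 with protein-coding TSSs. Away from promoters the SOX2 ratios were 4.63 and −0.36. Without either SOX2 replicate they were 3.61 and −0.88, since the lists are identical. Leaving out sites with RE1-like elements, an alternative chosen after seeing the data, gave 21.2, 23.3 and 1.87 for the first 3. The cause of these moves was not tested beyond what each alternative changes by construction. Elements at 14 and 16 letters, also chosen later, were found at 17.2 and 8.01% of shared sites, 4.42 and 1.16% of BRM sites without primed BRG1 and 0.88 and 0.22% of primed BRG1 sites without BRM. No paired analysis was possible because BRM and primed BRG1 have 1 library each. Lists were not matched for depth, which was lower for naïve BRM, so a missing peak of either list may lie under the caller's threshold. The primed BRG1 list was also short, with 15611 peaks against 58352 for primed BAF155 and 57853 for naïve BRG1. How far missed peaks of either list shaped the classes was not tested.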
